A study of Ovis aries with 12 samples.

Results

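The enzymes that make and first break down catecholamines were followed in the hippocampus of adult ewes. The set holds 5 of the 33609 genes in the count table: TH, DDC and DBH for synthesis, and MAOA and MAOB for breakdown. Genes were chosen by their symbols and their place in the pathway, with the higher DBH level in dorsal tissue already known. Differences between the regions are therefore given for these genes as descriptions, without a test. All 5 passed the filter on low counts, which kept 17806 genes.

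Catecholamines are made from tyrosine. Tyrosine hydroxylase (TH) forms L-DOPA in the rate-limiting step, aromatic L-amino acid decarboxylase (DDC) turns it into dopamine, and dopamine beta-hydroxylase (DBH) turns dopamine into noradrenaline inside vesicles. Monoamine oxidases A and B (MAOA, MAOB) on the outer mitochondrial membrane begin the breakdown. The hippocampus receives its noradrenaline from axons of the locus coeruleus, whose cell bodies lie in the brainstem, so that TH and DBH are known there mainly as proteins of incoming fibres. MAOA is typical of catecholamine neurons, and MAOB of astrocytes and serotonin neurons.

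RNA came from dorsal and ventral hippocampus of Ile-de-France ewes, 6 kept as controls and 6 exposed to chronic stress; the form of stress is not given in the sources used here. For each library, equal amounts of RNA of 2 ewes were mixed, which gave 3 libraries in each of 4 groups: dorsal control, dorsal stress, ventral control and ventral stress. Both regions came from the same 12 ewes. Pooling 2 ewes lessens differences between single animals but does not remove them, and single ewes cannot be told apart. DG, the abbreviation on the dorsal samples, is spelled out as dorsal in the series record, which does not say if tissue outside the dentate gyrus was included.

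Libraries held 12254743 to 53775720 counts. In dorsal tissue every control library (24952808 to 53775720) was deeper than every stress library (12254743 to 21244822), so depth and stress cannot be told apart there. Ventral control (19801665 to 45404523) and ventral stress libraries (24910994 to 33132246) overlapped in depth. The first principal component of log2 CPM, a count relative to the library total, took 50.04% of the variance, and each group had scores below and above 0 on it, while the second, with 18.9%, parted the regions. Excitatory neuron genes of the forebrain in general (SLC17A7, CAMK2A, NRGN and NEUROD6) summed to 2630 to 6720 CPM over the libraries. The summed level of 6 dentate granule cell genes was 19.1 to 51.7 CPM in dorsal and 28.1 to 53.7 CPM in ventral libraries, with TDO2 listed at 0 in every library and LCT at 0 to 12 counts. PROX1 of this list was 4.18 to 37.2 CPM in dorsal and 1.19 to 13.1 CPM in ventral libraries. These are bulk tissue data, in which fewer cells of a type and less RNA per cell cannot be told apart. Since transcript lengths were not used, levels of different genes are not compared.

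TH, the first enzyme, lay near the detection limit everywhere. In dorsal control libraries 1 to 3 it stood at 1.20, 0.585 and 0.547 CPM, and in dorsal stress libraries at 1.59, 0.760 and 0.490 CPM. In ventral control libraries it stood at 1.42, 0.198 and 0.084 CPM, and in ventral stress libraries at 0.426, 1.58 and 0.0894 CPM. The lowest of these values rest on 3 counts and the highest on 32 to 61. Each region thus held libraries above 1 CPM and libraries below it, and the groups overlapped. The 4 libraries above 1 CPM (dorsal control 1, dorsal stress 1, ventral control 1 and ventral stress 2) were also the 4 with the lowest scores on the first principal component, -35.6 to -103. The fitted dorsal to ventral difference was 0.45 ± 0.76 (log2, SE), which is smaller than its error. Leaving out single libraries, it ranged from 0.148 without dorsal stress 1 to 1.49 without ventral control 1, and it was 1.17 without ventral stress 2.

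DDC, the decarboxylase shared by catecholamine and serotonin synthesis, was low in both regions. Its levels were 4.63, 2.32 and 6.21 CPM in dorsal control, and 3.73, 4.87 and 1.88 CPM in dorsal stress. In ventral control they were 6.51, 3.72 and 4.26 CPM, and in ventral stress 3.06, 4.54 and 3.85 CPM. The 4 ranges overlapped, with the lowest and the second lowest values both in dorsal tissue. The fitted dorsal to ventral difference was -0.13 ± 0.31 (log2, SE).

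DBH, which makes noradrenaline, was the enzyme with the regional contrast. In dorsal control it stood at 33.3, 19.7 and 16.4 CPM, and in dorsal stress at 39.4, 16.1 and 11.2 CPM. In ventral control it stood at 4.06, 1.44 and 0.616 CPM, and in ventral stress at 4.64, 3.12 and 1.04 CPM. Every dorsal library was above every ventral one, from 11.2 CPM in the lowest dorsal to 4.64 CPM in the highest ventral library. DBH was the 1 member whose 6 dorsal libraries all lay above all 6 ventral ones, as did 1.97% of tested genes; DBH was chosen for this contrast, so nothing is read from the count. Group means were 23.1 ± 8.95 CPM in dorsal control and 22.2 ± 15.1 in dorsal stress, against 2.04 ± 1.80 in ventral control and 2.94 ± 1.81 in ventral stress (SD, n = 3 each). The fitted difference averaged over conditions was 3.21 ± 0.55 (log2, SE), or 9.23-fold. It was 3.49 ± 0.79 in control and 2.93 ± 0.77 in stressed ewes. With the mean log2 level of choroid plexus genes as a covariate the averaged difference was 5.13 ± 0.64.

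**Figure D1:**
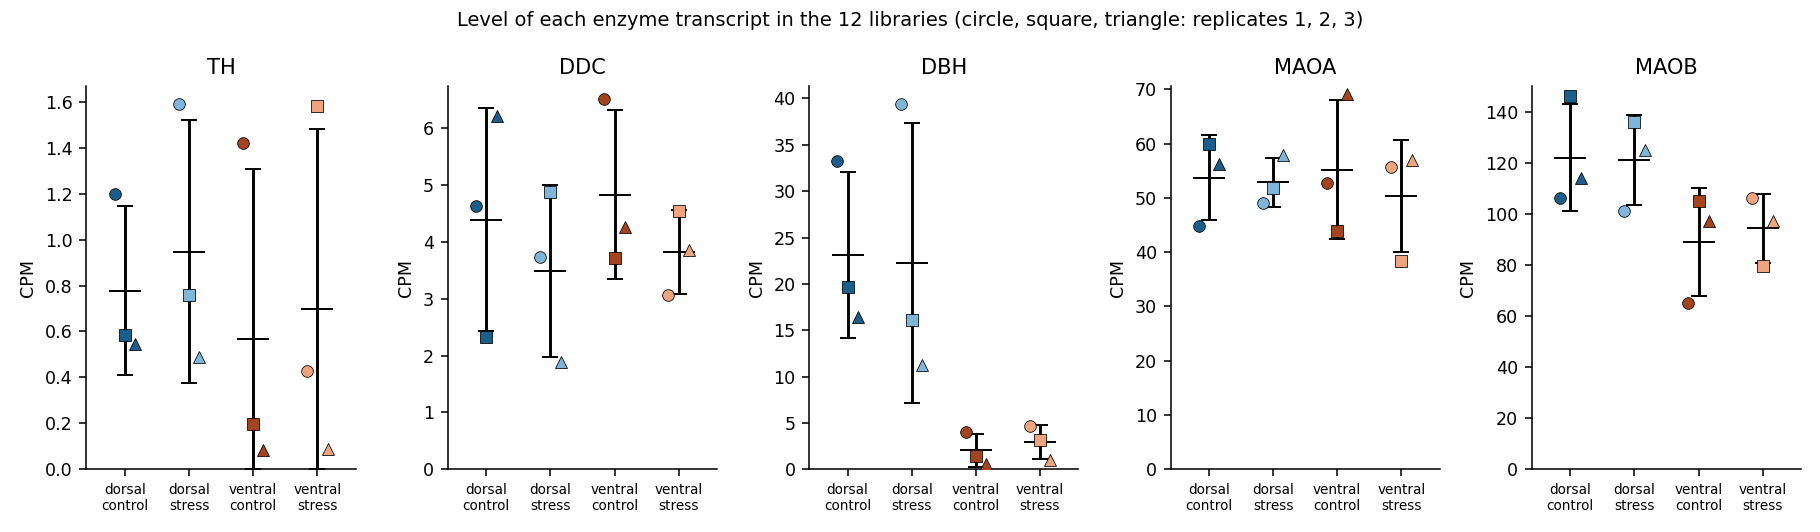
CPM of each enzyme transcript (vertical axes, each starting at 0) in the 4 groups of 3 libraries; circles, squares and triangles are libraries 1, 2 and 3, and lines give the mean ± SD, with bars that would fall under 0 ending there. DBH is 11.2 to 39.4 CPM in dorsal and 0.616 to 4.64 CPM in ventral libraries, while the ranges of TH, DDC, MAOA and MAOB overlap between the regions.

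DBH also varied between libraries of a group, and it varied together with TH. The Pearson correlation of their log2 levels was 0.71 over the 12 libraries, 0.934 over the 6 dorsal and 0.837 over the 6 ventral ones. This is a description, since libraries of both regions share ewes. In 3 of the 4 groups the library with the highest DBH level was also the one with the lowest score on the first principal component, ventral stress being the exception. With the first factor of residual variation as a covariate, the regional difference was 3.34 ± 0.21 for DBH and 0.98 ± 0.43 for TH (log2, SE). This factor was computed from the residuals of the same 12 libraries, so that a smaller SE follows in part from its construction. No regional difference of TH is read from this fit.

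The count ratio sets the 2 enzymes against each other within a library. Dorsal control libraries held 27.7, 33.6 and 29.9 DBH counts per TH count, and dorsal stress libraries 24.8, 21.2 and 22.8. Ventral control libraries held 2.86, 7.25 and 7.33, and ventral stress libraries 10.9, 1.98 and 11.7. The ratio was thus 21.2 to 33.6 in dorsal and 1.98 to 11.7 in ventral libraries, without overlap, so that the higher dorsal DBH level had no counterpart of like size in TH. This comparison of regions uses the contrast that chose DBH and was not tested. Between conditions, the dorsal stress ratios (22.9 ± 1.80, SD, n = 3) all lay under the dorsal control ratios (30.4 ± 2.98, SD, n = 3). These stress ratios rested on 32, 15 and 6 TH counts. Their 95% exact binomial intervals (17.4 to 36.4, 12.7 to 38.3 and 10.2 to 63.3) overlapped those of control (21.4 to 36.4, 22.8 to 51.8 and 17.6 to 55.2). An exact two-sided permutation test gave p = 0.1, the smallest that 3 against 3 libraries allow, and 0.6 after Benjamini-Hochberg adjustment over 6 ratio tests. The ventral ratios overlapped between conditions (exact two-sided permutation p = 0.6).

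**Figure D2:**
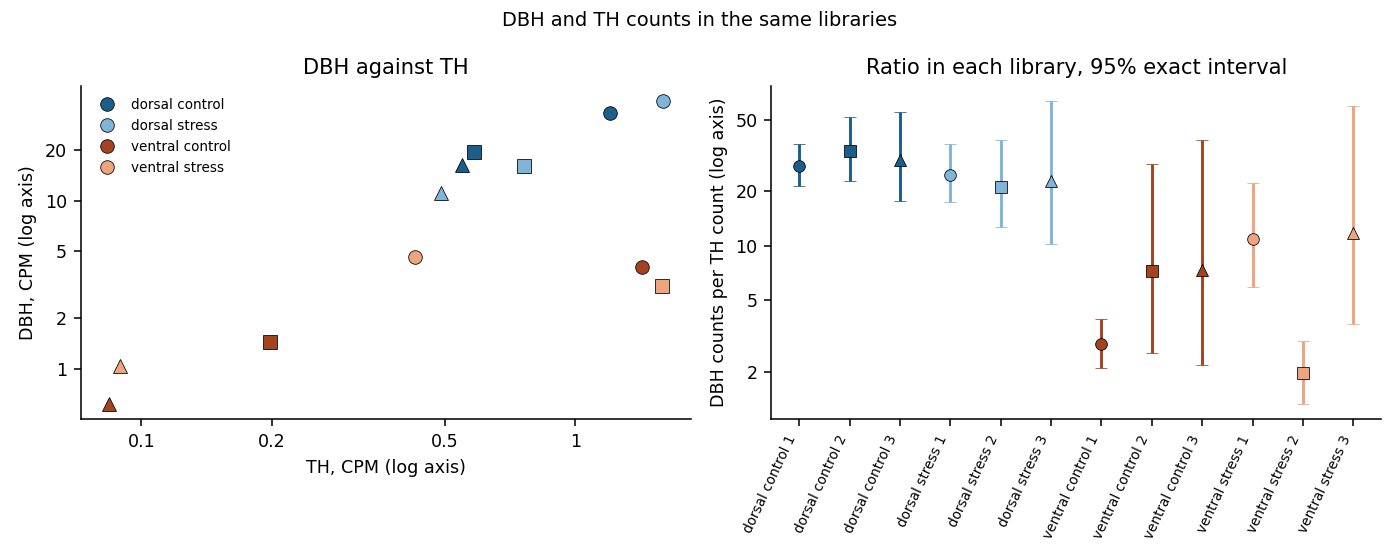
Left, DBH against TH in CPM on log axes for the 12 libraries, coloured by group; right, DBH counts per TH count in each library on a log axis, with 95% exact binomial intervals that cover counting error only. Dorsal ratios lie at 21.2 to 33.6 and ventral ratios at 1.98 to 11.7.

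MAOA, which prefers serotonin and noradrenaline, was nearly level. It stood at 44.8, 59.9 and 56.3 CPM in dorsal control, and at 49.0, 51.8 and 57.9 CPM in dorsal stress. Ventral control libraries held 52.7, 43.9 and 69.1 CPM, and ventral stress libraries 55.6, 38.4 and 56.9 CPM. Its extremes were both ventral, and the regions overlapped. The dorsal to ventral difference was 0.01 ± 0.16 (log2, SE).

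MAOB, which prefers phenylethylamine and also oxidises dopamine, was somewhat higher in dorsal tissue. Its levels were 106, 146 and 114 CPM in dorsal control, and 101, 136 and 125 CPM in dorsal stress. They were 64.9, 105 and 97.1 CPM in ventral control, and 106, 79.6 and 97.1 CPM in ventral stress. Control libraries of the 2 regions did not overlap, by a narrow gap (106 against 105 CPM), while stress libraries did. Among control libraries 2 members, DBH and MAOB, did not overlap between the regions, against 11.7% of tested genes. Among stress libraries it was DBH alone, against 13.7% of tested genes. Nothing is read from these counts, since DBH was chosen for its contrast. The fitted MAOB difference was 0.40 ± 0.16 (log2, SE), or 1.32-fold, and 0.14 ± 0.26 with the choroid plexus covariate.

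MAOA and MAOB are related genes that lie next to each other, and how reads with several matches were counted is not given in the sources used here. MAOB counts per MAOA count were 2.37, 2.43 and 2.02 in dorsal control, and 2.07, 2.62 and 2.15 in dorsal stress. They were 1.23, 2.39 and 1.41 in ventral control, and 1.91, 2.07 and 1.71 in ventral stress. Ventral control 1 and 3 had the lowest ratios, and ventral control 2 lay among the dorsal values. Exact two-sided permutation tests of stress against control gave p = 1 in dorsal and p = 0.5 in ventral tissue. The Pearson correlation of MAOA and MAOB levels, given as a description, was 0.314 over the 12 libraries, 0.701 over the 6 dorsal and 0.235 over the 6 ventral ones. Astrocyte genes, summed over 8 markers, were 13500 to 18200 CPM in dorsal and 14000 to 18700 CPM in ventral libraries. GFAP alone held 6690 to 12300 CPM of these sums. None of the 8 was called between the regions. Dorsal to ventral estimates were below 0 for 6 of the 8. Their median was -0.241 (log2), beside -0.0169 for all genes. The part of astrocytes in the MAOB difference was not tested.

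Stress was tested for every enzyme, since it was not used to choose them. In dorsal tissue 0 of the 5 passed an adjusted p of 0.05 in edgeR's quasi-likelihood test, against 0.00% of all 17806 genes. By the same test 152 genes had an unadjusted p under 0.05, and DESeq2 called 1 gene and limma-voom 0. In ventral tissue the count was again 0 of 5 against 0.00% of all genes, with 142 genes at an unadjusted p under 0.05, 1 called by DESeq2 and 0 by limma-voom. Stress and control libraries overlapped for all 5 enzymes in both regions, as against 5.13% of tested genes that did not overlap in dorsal and 2.86% in ventral tissue.

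DBH differed between stressed and control ewes by -0.05 ± 0.71 in dorsal and 0.51 ± 0.74 in ventral tissue (log2, SE; 95% intervals -1.62 to 1.52 and -1.12 to 2.13). The intervals of TH were wider, -2.08 to 2.66 around 0.29 ± 1.07 in dorsal and -2.13 to 2.64 around 0.25 ± 1.08 in ventral tissue. For these 2 genes a change of 2-fold in either direction lies within the intervals. DDC estimates were below 0 in both regions, -0.32 ± 0.44 (-1.29 to 0.651) and -0.34 ± 0.44 (-1.31 to 0.621). The monoamine oxidases had the narrowest intervals. MAOA differed by -0.02 ± 0.23 (-0.519 to 0.475) in dorsal and -0.13 ± 0.23 (-0.631 to 0.362) in ventral tissue. MAOB differed by -0.02 ± 0.22 (-0.510 to 0.476) and 0.08 ± 0.22 (-0.409 to 0.577). All 10 edgeR adjusted p-values were 0.9999 in dorsal and 0.9998 in ventral tissue.

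Single libraries moved the TH and DBH estimates. Ventral TH was 2.34 higher (log2) in stress without ventral control 1 and -1.19 without ventral stress 2. Ventral DBH was 1.55 without ventral control 1 and 0.0093 without ventral stress 1. Dorsal DBH was -0.76 without dorsal stress 1 and 0.31 without dorsal control 1. None of these passed an adjusted p of 0.05.

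Averaged over the regions, stress estimates were 0.27 ± 0.76 for TH, -0.33 ± 0.31 for DDC, 0.23 ± 0.51 for DBH, -0.08 ± 0.16 for MAOA and 0.03 ± 0.16 for MAOB (log2, SE). Again 0 of 5 passed in edgeR, against 0.00% of all genes, while 308 genes had an unadjusted p under 0.05, DESeq2 called 14 and limma-voom 0. Whether stress acted differently in the regions was tested as an interaction. It gave -0.56 ± 1.02 for DBH (95% interval -2.82 to 1.70) and 0.04 ± 1.53 for TH (-3.34 to 3.42). For DDC, MAOA and MAOB it gave 0.02 ± 0.62, 0.11 ± 0.32 and -0.10 ± 0.32. No member passed (0 of 5, edgeR, against 0.00% of all genes), with 46 genes at an unadjusted p under 0.05 and 0 called by DESeq2 or limma-voom.

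**Figure D3:**
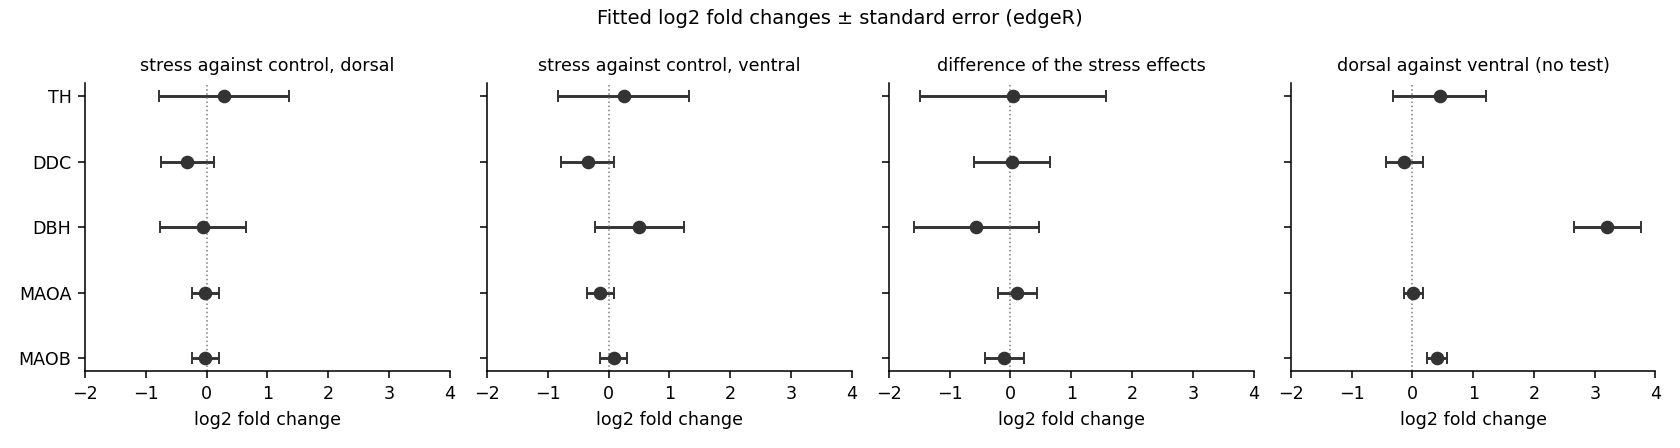
Fitted log2 fold changes ± SE (edgeR) of the 5 enzymes between regions and between conditions; the dotted line marks no difference. DBH between regions is 3.21 ± 0.55, and the stress estimates within either region lie between -0.34 and 0.51.

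Genes next to the enzymes were read from RefSeq annotation of ARS-UI_Ramb_v3.0, a sheep assembly, for names and order only. SARDH, a mitochondrial enzyme of sarcosine breakdown, lies beside DBH and did not share its pattern. It was 1.72 to 5.52 CPM in dorsal and 2.36 to 16.4 CPM in ventral libraries, a difference of -0.88 ± 0.49 (log2, SE, edgeR adjusted p = 0.553). A non-coding RNA gene, LOC121819260, overlaps DBH in that table and has no line of its own in the counts. The kit marks strand, but the strand setting of the counting is not given in the sources used here, so reads of DBH and of an overlapping RNA cannot be told apart. TH lies between TSPAN32 and INS, the insulin gene, which was listed at 0 in every library. TSPAN32 differed by -0.45 ± 0.70 between regions. DDC lies between GRB10 (0.31 ± 0.20) and FIGNL1 (0.16 ± 0.20), neither called.

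Of the 4 markers of noradrenaline neurons other than TH and DBH, 2 were tested, and SLC6A2 was called between the regions, opposite to DBH. PHOX2A, a transcription factor of these neurons, was listed at 0 in 9 libraries. A listed 0 is not proof of absence here, since SST, a well-known interneuron gene, was also listed at 0. The summed level of the 4 markers was 0.585 to 1.47 CPM in dorsal and 1.82 to 4.79 CPM in ventral libraries. GATA3 was 0.469 to 1.06 CPM in dorsal and 0.336 to 1.09 CPM in ventral libraries (-0.05 ± 0.36, log2, SE). SLC6A2, the noradrenaline transporter, stood at 0.256, 0.045 and 0.430 CPM in dorsal control and at 0.498, 0.152 and 0.409 CPM in dorsal stress. Ventral levels were 1.42, 0.943 and 4.42 CPM in control and 0.619, 1.26 and 1.79 CPM in stress. All dorsal libraries were below all ventral ones. SLC6A2 was lower in dorsal tissue by -2.52 ± 0.60 (log2, SE, edgeR adjusted p = 0.0410), a call lost when any 1 of 10 libraries was left out and kept without ventral control 1 (0.0349) or ventral stress 1 (0.0497). It was also lost in limma-voom (0.0621) and with thinned counts (0.0543).

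Of 9 choroid plexus genes 3 were called higher in dorsal tissue, the direction of DBH, and none was called lower. Their sum, mostly TTR in dorsal libraries, was 394 to 2860 CPM in dorsal and 74.5 to 433 CPM in ventral libraries, and the 3 differed as follows: TTR by 3.54 ± 0.68, CLIC6 by 1.87 ± 0.32 and AQP1 by 3.25 ± 0.66 (log2, SE; edgeR adjusted p = 0.0151, 0.00770 and 0.0206). The AQP1 call was lost when any 1 of 6 libraries was left out. Estimates of 3 of the 9 were below 0: KL (-1.69 ± 0.65), SLC4A5 (-0.66 ± 0.93) and KCNJ13 (-0.14 ± 0.31). With the mean of the list itself as covariate, the adjusted p was 0.142 for AQP1 and 0.0564 for TTR. Among dorsal libraries TTR was 2810 CPM in dorsal control 1, with the second highest DBH level, and 361 CPM in dorsal stress 1, with the highest. The covariate was the unweighted mean log2 level of the 9 genes, in which KL weighs as much as TTR. TTR was 413 CPM in ventral control 1 and 45.3 CPM in ventral control 3, while KL was 1.97 and 25.4 CPM in these libraries. Because genes of the list run against each other, the covariate fit is no test of choroid plexus tissue. The part of these genes in the DBH difference was not tested.

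Single marker genes of other cell types were called too. Oligodendrocyte genes summed to 6480 to 10600 CPM in dorsal and 3690 to 8140 CPM in ventral libraries, with 1 of 6 higher in dorsal tissue (MOBP by 0.92 ± 0.19, edgeR adjusted p = 0.0232). Of the 4 excitatory neuron genes 1 was higher (CAMK2A by 0.60 ± 0.13, edgeR adjusted p = 0.0265). Their sums were 4470 to 6720 CPM in dorsal and 2630 to 4770 CPM in ventral libraries. The MOBP call was lost when any 1 of 7 libraries was left out and the CAMK2A call with any 1 of 6, and both were lost with the choroid plexus covariate (0.134 and 0.178). Of 5 tested inhibitory neuron genes 2 were lower in dorsal tissue, GAD1 by -0.51 ± 0.10 and VIP by -1.11 ± 0.27 (edgeR adjusted p = 0.0154 and 0.0412). Of 4 tested dentate granule cell genes 1 was lower, DSP by -1.92 ± 0.38 (edgeR adjusted p = 0.0166). Estimates of 3 of the 4 were below 0. PROX1 went the other way and was not called. Its means were 11.2 CPM in dorsal control and 19.9 in dorsal stress, against 5.38 in ventral control and 6.49 in ventral stress. None of the endothelial, mural, microglial or ependymal genes was called. Of 6 meningeal genes 5 were lower in dorsal tissue, with sums of 141 to 222 CPM against 326 to 567 CPM. The part of these cell types in the MAOB and DBH differences was not tested.

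**Figure D4:**
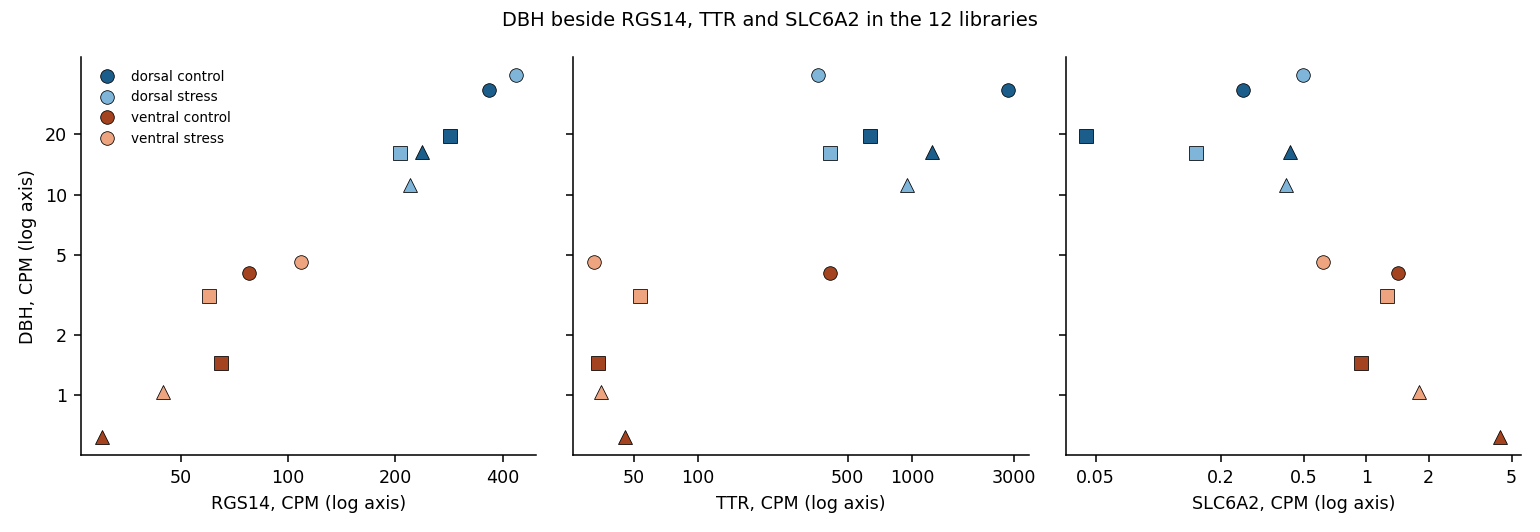
DBH (vertical log axis, CPM) against RGS14, TTR and SLC6A2 (horizontal log axes, CPM) in the 12 libraries, coloured by group. RGS14 and DBH are both higher in all dorsal libraries, TTR overlaps between the regions, and SLC6A2 is lower in all dorsal libraries.

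The other genes of catecholamine metabolism were counted over lists of 30 genes, of which 24 were tested. Between regions 2 were higher and 1 lower in dorsal tissue, against 4.51% of all 17806 genes called in edgeR (1.44% higher and 3.07% lower). The median log2 difference of the 24 was -0.12, beside -0.02 for all genes. In the stress comparisons 0 of 24 was called, with medians of -0.082 in dorsal, -0.15 in ventral tissue and -0.090 averaged.

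Of 10 genes for synthesis and cofactors 0 was called. GCH1, the first enzyme of tetrahydrobiopterin synthesis, the cofactor of TH, differed by -0.77 ± 0.33 (log2, SE, edgeR adjusted p = 0.307). PNMT, which makes adrenaline, had 5, 1, 1 and 4 counts in the 4 groups and was not tested. Of 6 genes for later breakdown, among them aldehyde dehydrogenases and aldo-keto reductases, 0 was called.

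Of 5 tested transporter genes 3 were called, SLC6A2 among them. SLC18A1, a vesicular monoamine transporter best known from endocrine cells, was higher in dorsal tissue. It stood at 2.40, 2.25 and 0.743 CPM in dorsal control and at 1.54, 0.710 and 1.39 CPM in dorsal stress. Ventral levels were 0.216, 0.397 and 0.084 CPM in control and 0.271, 0.237 and 0.239 CPM in stress. The regions did not overlap, and the difference was 2.63 ± 0.45 (log2, SE, edgeR adjusted p = 0.00861; 0.0510 with counts thinned to the shallowest library). SLC18A2, the vesicular transporter of monoamine neurons, had 3, 0, 30 and 23 counts in the 4 groups and was not tested. SLC29A4, a low-affinity monoamine transporter of the plasma membrane, was 6.34 to 8.25 CPM in dorsal and 2.63 to 5.14 CPM in ventral libraries. It was higher by 0.91 ± 0.20 (edgeR adjusted p = 0.0296), a call lost when any 1 of 9 libraries was left out and with the choroid plexus covariate (0.0624). Of 3 genes for serotonin, histamine and trace amines 0 was called.

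**Figure D5:**
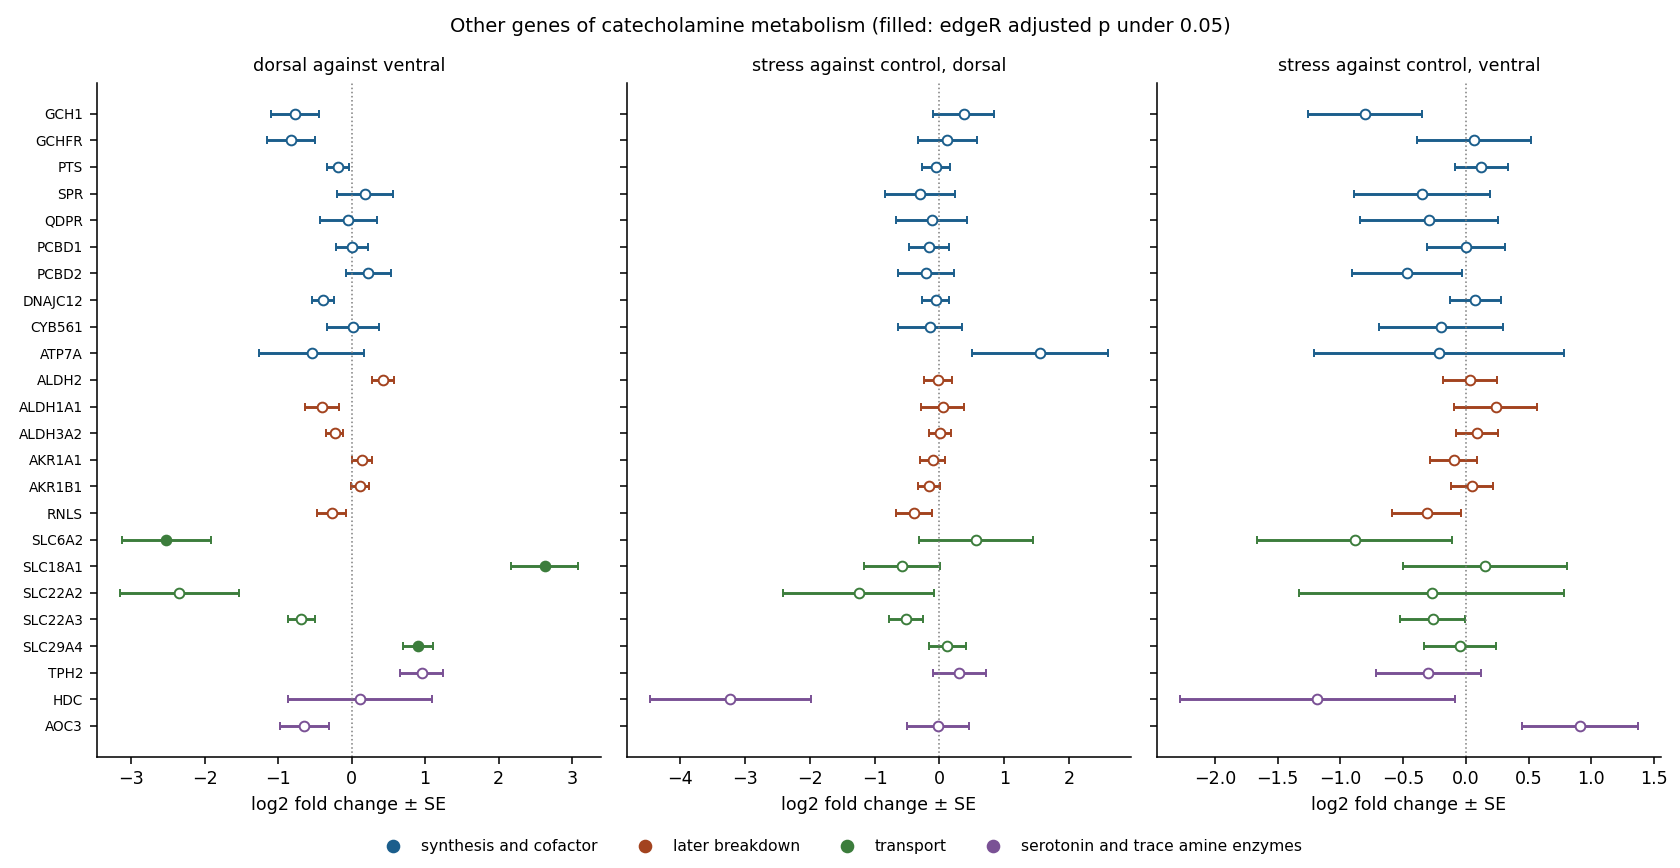
Log2 fold changes ± SE (edgeR) of the other genes of catecholamine metabolism between regions and between conditions, coloured by role; filled points passed an adjusted p of 0.05. SLC18A1 and SLC29A4 lie to the right and SLC6A2 to the left between regions, and no point is filled for stress.

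For each enzyme the 5 genes with the most similar profile over the 12 libraries were taken by Pearson correlation of log2 CPM among 12597 candidates (12598 for TH), as a description. DBH was followed most closely by RGS14 (0.985), SCNN1B (0.984), PSRC1 (0.984), GYG1 (0.983) and PLPPR2 (0.980). RGS14, a regulator of G protein signalling known from CA2 pyramidal neurons, was 366, 284 and 237 CPM in dorsal control and 435, 206 and 220 CPM in dorsal stress. Ventral libraries held 77.6, 64.7 and 30.0 CPM in control and 109, 60.0 and 44.6 CPM in stress. RGS14 followed DBH within each region too, with correlations of 0.947 over the 6 dorsal and 0.915 over the 6 ventral libraries. This was not particular to RGS14: SCNN1B, PSRC1, GYG1 and PLPPR2 had 0.807 to 0.867 over the dorsal and 0.938 to 0.986 over the ventral libraries. In both genes dorsal stress 1 was the highest library and ventral control 3 the lowest.

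The nearest profiles to TH were those of FAM193A (0.967), NDUFAF6 (0.956), NRDE2 (0.954), LSM3 (0.953) and TBC1D2 (0.944). MAOB was nearest to ZCCHC12 (0.957), PPP2R2C (0.951), NWD1 (0.937), FBXO34 (0.932) and NPY5R (0.928). MAOA was nearest to ZNF565 (0.921), KIAA1958 (0.918), RNF24 (0.903), ZNF354C (0.902) and C2H9orf85 (0.892). DDC had the least similar profiles around it, among them JPT2 (0.784), NRROS (0.754), EMP3 (0.735) and PLEKHG2 (0.729). The 5 lists share no gene.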

How the data were processed

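Per the submitters' processing notes, the tools were featureCounts 2.0.0, TopHat2 2.1.1, SAMtools 1.9, Bowtie2 2.3.5.1, FastQC and bcl2fastq 2.20. The deposited table gives the authors' raw gene counts for 12 libraries made with a TruSeq stranded mRNA kit, per the labels' protocols. The sources used here do not give the strand setting, the build, its annotation or how multiply mapped reads were treated, so no coordinates are printed. Counts of 33609 genes were filtered by group with filterByExpr (17806 kept), scaled by TMM and fitted with edgeR 4.0.16 (robust quasi-likelihood test, R 4.3.3), with 1 mean for each of 4 groups. P-values were adjusted by Benjamini-Hochberg over all tested genes, with a threshold of 0.05. They measure the spread between 3 pools of 2 ewes and treat the 2 regions of the same ewes as independent. Correlations used log2 CPM with a prior count of 2, and ratios used raw counts with 95% exact binomial intervals, which cover counting error only.

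The members and the gene lists were chosen with earlier results of these data known. The text names the 5 members, PNMT, GCH1, SLC6A2, SLC18A2, list genes called in a comparison, marker genes of lists that moved with a member, the genes beside each member, and the 5 nearest profiles per member among genes with a symbol that is not a placeholder and an average log2 CPM of 1 or more. Some genes of the lists and profiles are not reported here. Of 117 list genes 115 were in the table and 100 were tested; LRTOMT was matched as TOMT. For 412 genes a placeholder symbol was replaced from the RefSeq table. Alternatives were DESeq2 1.42.0, limma-voom (limma 3.58.1), other size factors, no filter, thinned counts, covariates, replicate blocks and leaving out each library.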

Additional observations from a re-analysis of the deposited data

How the results depend on the processing

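In all alternatives that were run DBH was higher in dorsal tissue, and no member passed an adjusted p of 0.05 for stress (lowest 0.2475, DBH in dorsal tissue). Between regions 803 genes and 3 other pathway genes were called. These counts were 1558 and 6 with DESeq2, 4041 and 9 with a choroid plexus score as covariate, 3761 and 10 with the first residual factor as covariate, and 1375 and 6 with a replicate block. With a replicate block within condition 5 pathway genes were called, and with thinned counts 1. For stress averaged over regions the residual factor gave 409 genes and 1 pathway gene, and DESeq2 gave 14 genes, with 1 gene in dorsal and 1 in ventral tissue. The cause of these shifts was not tested.

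With the choroid plexus covariate the regional difference (log2) was 5.13 for DBH (6.16 in control and 4.10 in stressed ewes), 3.61 for TH, -0.33 for MAOA, 0.14 for MAOB, 0.39 for DDC and 1.30 for SARDH. Stress estimates were then -0.12 for DBH and -0.31 for TH averaged over regions, and -1.15 for DBH, -0.66 for DDC, -1.32 for TH, 0.16 for MAOA and 0.11 for MAOB in dorsal tissue. The interaction was then -2.06 for DBH, -0.40 for DDC, 0.061 for MAOB and -2.02 for TH. The TH interaction, 0.04 at first, was -0.051 with thinned counts, -0.46 with the residual factor and -0.0029 without a filter, where that of DDC was -0.0095.

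Correlations of the deviations of same-numbered libraries were 0.115 to 0.719 for number 1, 0.268 to 0.787 for number 3 and mixed, from -0.507 to 0.322, for number 2. These ranges include pairs of a control and a stress library, which hold different ewes. Between dorsal and ventral libraries 1 to 3 the correlations were 0.717, -0.119 and 0.373 in control. In stress they were 0.208, -0.233 and 0.761. As not every pair was over 0.1, the numbers were not taken as pairing. Among the 3 libraries of the same condition in the other region, 6 of 12 libraries correlated best with their own number. The TH interaction was -0.42 with a replicate block and -0.18 with a replicate block within condition.

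Leaving out 1 library at a time, the regional difference ranged from 3.05 to 4.53 for DBH in control ewes. Stress averaged over regions ranged from -0.12 to 0.75 for DBH, -0.15 to 0.018 for MAOA, -0.058 to 0.11 for MAOB and -0.45 to 1.31 for TH. In dorsal tissue the ranges were -0.76 to 0.31 for DBH, -0.63 to 0.011 for DDC, -0.14 to 0.065 for MAOA, -0.11 to 0.13 for MAOB and -0.31 to 0.75 for TH. In ventral tissue they were 0.0093 to 1.55 for DBH, -0.50 to -0.057 for DDC, -0.27 to 0.059 for MAOA, -0.093 to 0.22 for MAOB and -1.19 to 2.34 for TH. The interaction ranged from -1.60 to -0.063 for DBH, -0.29 to 0.35 for DDC, -0.081 to 0.25 for MAOA, -0.24 to 0.071 for MAOB and -2.05 to 1.48 for TH. Called genes between regions numbered 424 to 1090, and called pathway genes 1 to 5. TH had 3 to 61 counts per library. With thinned counts the DDC stress estimate was -0.77 in ventral tissue and -0.55 averaged, its interaction was 0.45, and the TH stress estimate averaged over regions was 0.62.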

Other observations

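Other genes known from CA2 pyramidal neurons were set beside DBH after its likeness to RGS14 had been seen, as a description. The Pearson correlation of log2 CPM with DBH over the 12 libraries was -0.753 for PCP4, -0.256 for AMIGO2, -0.322 for NTF3, 0.147 for STRIP2, -0.138 for CACNG5 and -0.267 for MAP3K15. Over the 6 dorsal libraries alone PCP4 (0.873) and NTF3 (0.703) ran with DBH, while AMIGO2 (-0.873), STRIP2 (-0.858) and CACNG5 (-0.889) ran against it. MAP3K15, with 0 to 23 counts per library, stood at 0.167 there. Over the 6 ventral libraries the values were 0.47 for NTF3, -0.0493 for PCP4 and -0.0494 for CACNG5. They were -0.654 for AMIGO2, -0.475 for STRIP2 and -0.606 for MAP3K15. The signs thus differed among the 7 genes, RGS14 included. A source of DBH in CA2 neurons was not tested.

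HDC, the enzyme that makes histamine, was picked out after its values were seen. Dorsal control libraries held 13, 51 and 20 counts, or 0.256, 1.15 and 0.782 CPM. The shallower dorsal stress libraries held 0, 4 and 0 counts, or 0, 0.203 and 0 CPM. The levels did not overlap, by a narrow gap (0.256 against 0.203 CPM), as for 5.13% of tested genes. The fitted difference was -3.22 ± 1.24 (log2, SE), with an unadjusted p of 0.0253 and an adjusted p of 0.9999 in edgeR, so that it did not pass. In ventral tissue the counts were 7, 2 and 25 in control and 7, 1 and 4 in stress, which overlap.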
